A study of Homo sapiens with 18 samples.

Results

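The comparison set SJSA-1 cells given neocarzinostatin (NCS) and MI-1061 against SJSA-1 cells given MI-1061 without NCS. It holds 6 of the 18 libraries of the series, 3 in each group, chosen by their labels, and covers all 3074 genes of the deposited table. SJSA-1 is a human osteosarcoma cell line with extra copies of the MDM2 gene, and poly(A) RNA was sequenced. Cells of the NCS + MI-1061 group were kept for 72 h with NCS at 1 µg/mL, renewed after 48 h, and MI-1061 was present at 1 µM during the last 24 h. Cells of the MI-1061 group had DMSO in place of NCS and the same 24 h with MI-1061 at 1 µM. Both groups therefore carry the inhibitor and differ in NCS, which was present for 48 h before MI-1061 and for the 24 h with it. What NCS did before MI-1061 was added and what it did with MI-1061 cannot be told apart. The other 4 groups, with 3 libraries each, are used where the effect is set beside that of NCS elsewhere: NCS without a compound and its vehicle (DMSO) group, and NCS + MD-224 and its MD-224 group, with MD-224 at 1 µM for the same 24 h. All groups come from 1 cell line, and no label says that replicates were separate cultures, so p values measure the spread between these libraries, which may be technical.

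NCS is an antibiotic that cuts DNA and causes double-strand breaks. MDM2 is the ubiquitin ligase that binds p53 and marks it for degradation, and its gene is itself a p53 target. MI-1061 blocks the binding of MDM2 to p53, while MD-224 brings MDM2 to a ligase that degrades it. Cells with lasting DNA damage can stop dividing and release cytokines, proteases and growth factors, a pattern known as the senescent secretome, much of which is driven by NF-kB and by IL-1 alpha.

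The listing sets what can be counted, and the rule by which genes were listed is not given in the sources used here. Every listed gene had a mean in the NCS + MI-1061 libraries at least 1.75-fold that in the vehicle libraries (median 3-fold), so rises are favoured, and a gene can lie lower with NCS and MI-1061 than with MI-1061 only if MI-1061 itself had raised it over vehicle. The values are the authors' normalized counts, and the listed genes summed to 16915894 to 17252589 in the NCS + MI-1061 libraries and to 10378455 to 11605944 in the MI-1061 libraries. These sums are not depths, since the table is a selection. A limma fit over all 6 groups was used on log2(normalized count + 1), and a gene is called changed where its Benjamini-Hochberg adjusted p over the 3073 tested genes is under 0.05. Folds were taken back from the log2 scale of that fit and understate the change of genes with low counts.

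Cells given NCS with MI-1061 had more of most listed transcripts than cells given MI-1061. Limma called 1717 of 3073 genes higher (55.9%) and 309 lower (10.1%), 65.9% in either direction, with a median over all genes of log2 0.71, or 1.63-fold. In 1851 genes (60.2%) the 3 NCS + MI-1061 libraries all lay above the 3 MI-1061 libraries, and in 396 (12.9%) they all lay below. In such bulk RNA, fewer cells of a type and less RNA per cell cannot be told apart. Of the called rises, 1110 were at least 2-fold, 345 at least 4-fold and 83 at least 8-fold, and of the called falls 219, 67 and 18. TMM scaling over the listed genes, which assumes that most of them did not change, moved the median by −0.61 to log2 0.09, and then 930 genes (30.3%) were called higher and 729 (23.7%) lower. Rises made up 84.7% of the calls as deposited and 56.1% with TMM scaling. A gene between log2 0 and 0.61 thus lies above its MI-1061 level as deposited and below the bulk of listed genes. Counts of list members below are to be read against these shares of all genes, as deposited and with TMM scaling.

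**Figure D1:**
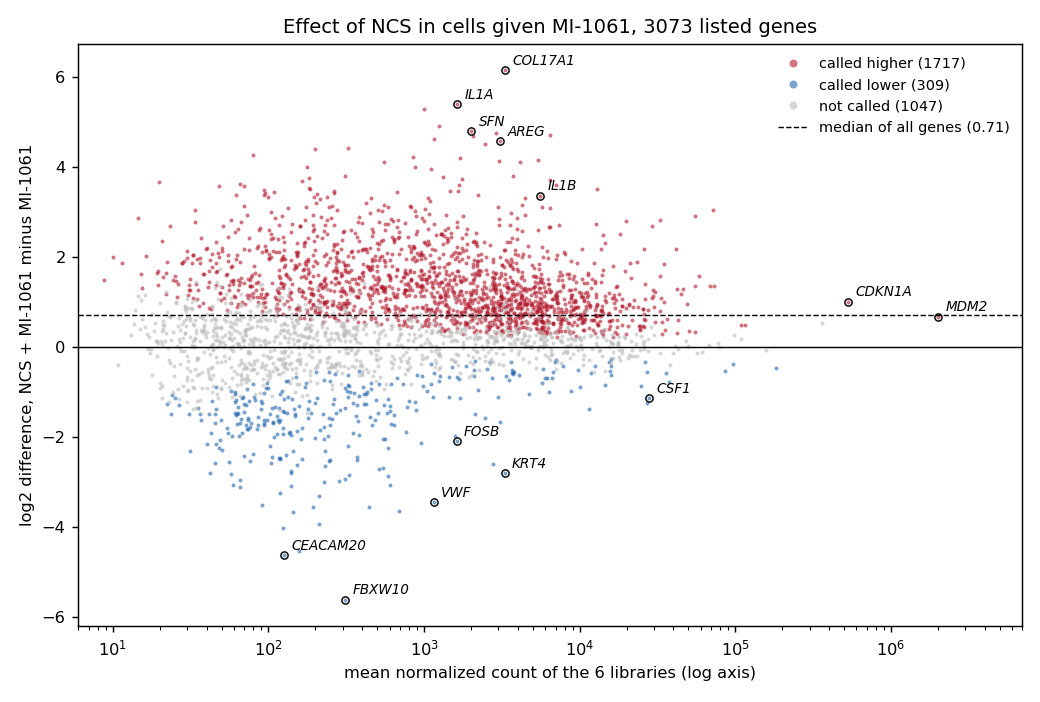
Each point is 1 of 3073 listed genes, with the mean normalized count of the 6 libraries on the x axis (log axis) and the log2 difference of NCS + MI-1061 minus MI-1061 on the y axis. The dashed line is the median of all genes (0.71); 1717 genes were called higher, 309 lower and 1047 neither, and the called falls lie mostly at low counts.

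The largest rise was in COL17A1, a collagen of the hemidesmosomes that fix epithelial cells to their matrix (chr10:104031286-104085880, GRCh38.p14). COL17A1 had 4392, 11000 and 4113 in the NCS + MI-1061 libraries, against 75.9, 161 and 44.6 in the MI-1061 libraries. All 3 NCS + MI-1061 libraries lay far above the others, with replicate 2 the highest in both groups. The difference was 70.5-fold (log2 6.14, SE 0.61; limma adjusted p = 1.97e-07), with a 95% interval of log2 4.86 to 7.43. IL1A, which encodes the cytokine IL-1 alpha (chr2:112773925-112784493), had 3287, 3268 and 2980 in the NCS + MI-1061 libraries, against 106, 71.95 and 55.3 in the MI-1061 libraries. Its groups were far apart, with close values in the 3 NCS + MI-1061 libraries, and it rose 41.8-fold (log2 5.39, SE 0.28; limma adjusted p = 2.27e-10). TMEM40, a gene for a transmembrane protein, had 1848, 2164 and 1838 with NCS and MI-1061, against 66.9, 52.8 and 33.8 with MI-1061, and rose 38.7-fold (adjusted p = 3.30e-08).

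SFN encodes 14-3-3 sigma, a p53 target that holds cells in G2 (chr1:26863149-26864456), and it had 1708, 7986 and 1942 in the NCS + MI-1061 libraries, against 59.2, 312 and 64.5 in the MI-1061 libraries. Replicate 2 stood above the other replicates in both groups, and no libraries overlapped. SFN rose 27.8-fold (log2 4.80, SE 0.85; limma adjusted p = 9.78e-05). Its log2 was 4.09 without NCS + MI-1061 replicate 2 and 5.57 without MI-1061 replicate 2. CRYAB, the small heat shock protein alpha-B crystallin, had 3649, 7532 and 5618 with NCS and MI-1061, against 162, 223 and 219.8 with MI-1061, and rose 26.8-fold (adjusted p = 4.45e-10). The spans of CRYAB and HSPB2 overlap in RefSeq, so their reads may not be separable. TSPAN10, a tetraspanin gene, had 12083, 12719 and 12340 with NCS and MI-1061, against 754, 479 and 298 with MI-1061, and rose 26-fold (adjusted p = 2.44e-09). PTPN22, a protein tyrosine phosphatase best known in lymphocytes, had 3159, 5555 and 3236 with NCS and MI-1061, against 181, 182 and 99.9 with MI-1061. It rose 25.6-fold (adjusted p = 4.62e-09), with replicate 2 the highest, and PLCXD2, a phospholipase-domain gene, rose 24.4-fold (adjusted p = 1.22e-08).

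AREG, the EGF receptor ligand amphiregulin (chr4:74445136-74455005), had 6142, 6873 and 4745 in the NCS + MI-1061 libraries, against 226, 361 and 179.8 in the MI-1061 libraries, and rose 23.8-fold (log2 4.57, SE 0.41; limma adjusted p = 6.86e-08). Every NCS + MI-1061 library was more than 10 times any MI-1061 library. SERPINB7, a serpin of epidermis, had 4061, 4463 and 5440 with NCS and MI-1061, against 543, 168 and 89.2 with MI-1061, a spread that replicate 1 of the MI-1061 group widens. It rose 22.8-fold (adjusted p = 0.000169), and its log2 of 4.51 was 5.32 without replicate 1 of every group, 3.81 without replicate 3 of every group and 5.23 without MI-1061 replicate 1. ALOXE3, an epidermal lipoxygenase, had 712, 650 and 509 with NCS and MI-1061, against 29.6, 23.98 and 30.7 with MI-1061, and rose 21.4-fold (adjusted p = 9.35e-07). TREM1, a receptor that amplifies inflammatory signals in myeloid cells, had 445, 419 and 275 with NCS and MI-1061, against 25.7, 9.59 and 18.4 with MI-1061, and rose 21.1-fold (adjusted p = 3.75e-08). All 12 of these largest rises were still called with TMM scaling, with log2 values of 3.77 to 5.52.

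**Figure D2:**
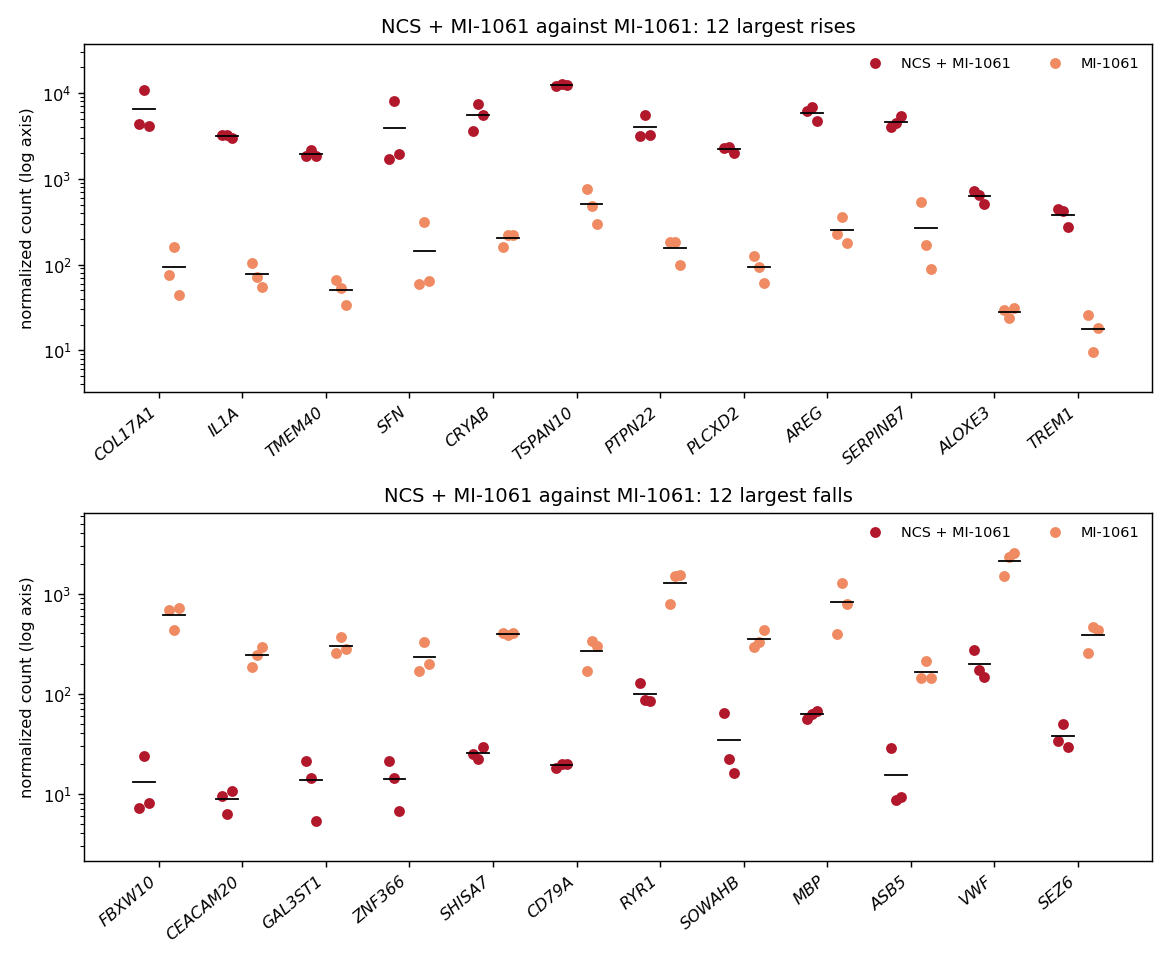
Normalized counts (log axis) of the 12 largest rises (top) and 12 largest falls (bottom), with 1 point per library, NCS + MI-1061 to the left of MI-1061 for each gene, and a black line at the group mean. In all 24 genes the 3 libraries of a group lie apart from the 3 of the other, and the genes were chosen for that.

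Some changed genes lie beside each other in the genome, and upstream sequences are shown for 3 such pairs, which were chosen after their values were seen. IL1A and IL1B lie 45257 bases apart on chromosome 2 with 0 coding genes between them, and both rose. AREG and EREG lie 56386 bases apart on chromosome 4 with 0 coding genes between them, and both rose. COL4A3 and COL4A4, which encode chains of basement membrane collagen, start head to head with 135 bases between their starts, and moved in opposite directions. COL4A3 had 13.1, 37.96 and 27.99 with NCS and MI-1061, against 64.3, 50.4 and 83 with MI-1061, and fell to 0.384-fold (adjusted p = 0.0123), while COL4A4 had 119, 165 and 199.9 with NCS and MI-1061, against 61.7, 47.97 and 90.7 with MI-1061, and rose 2.42-fold (adjusted p = 0.00632). The sequences below are the 250 bases before each RefSeq start (GRCh38.p14), given 5′ to 3′ on the gene's strand, or, for the collagen pair, the whole stretch between the starts in the direction of COL4A3. Capitals mark matches, on either strand, to the AP-1 motif TGANTCA or to TATAAA. The stretches are chr2:112784494-112784743 and chr2:112836780-112837029 (minus strand), chr4:74444886-74445135 and chr4:74364895-74365144 (plus strand), and chr2:227164489-227164623 (plus strand).
IL1A: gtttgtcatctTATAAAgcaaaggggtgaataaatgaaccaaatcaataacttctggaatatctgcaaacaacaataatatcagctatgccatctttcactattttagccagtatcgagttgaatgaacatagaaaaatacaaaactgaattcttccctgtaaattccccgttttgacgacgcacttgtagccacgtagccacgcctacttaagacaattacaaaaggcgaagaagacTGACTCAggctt
IL1B: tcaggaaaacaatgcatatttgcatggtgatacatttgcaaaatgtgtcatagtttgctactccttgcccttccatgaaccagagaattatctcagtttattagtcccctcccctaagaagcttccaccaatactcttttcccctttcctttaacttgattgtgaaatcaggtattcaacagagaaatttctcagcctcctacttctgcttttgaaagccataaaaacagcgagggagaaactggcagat
AREG: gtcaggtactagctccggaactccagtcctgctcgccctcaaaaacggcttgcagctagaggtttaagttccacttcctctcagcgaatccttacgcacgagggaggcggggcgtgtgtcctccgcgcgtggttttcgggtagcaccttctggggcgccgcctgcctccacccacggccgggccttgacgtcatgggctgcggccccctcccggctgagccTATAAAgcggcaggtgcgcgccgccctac
EREG: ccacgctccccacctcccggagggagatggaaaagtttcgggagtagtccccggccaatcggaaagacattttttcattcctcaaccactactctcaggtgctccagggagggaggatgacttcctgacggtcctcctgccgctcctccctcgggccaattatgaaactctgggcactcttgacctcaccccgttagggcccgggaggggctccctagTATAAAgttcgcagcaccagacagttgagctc
COL4A3-COL4A4: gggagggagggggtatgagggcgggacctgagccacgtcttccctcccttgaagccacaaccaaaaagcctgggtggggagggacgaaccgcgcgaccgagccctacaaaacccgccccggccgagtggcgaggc
IL1A holds the AP-1 letters with their first base at position −12 and TATAAA at −239 from the start. A second AP-1 match, at 38 after the IL1A start, lies outside the stretch shown and inside the windows counted next. TATAAA lies at −29 in AREG and at −32 in EREG, and the IL1B stretch and the collagen stretch hold neither motif. Over windows of 300 bases (250 before to 50 after the start) the AP-1 letters occurred in 8.75% of the 240 promoters matched for rises of at least 4-fold and in 2.44% of the 41 matched for falls of at least 4-fold. They occurred in 7.28% of the 2115 promoters matched for listed genes and in 7.76% of all 27305 RefSeq promoters. TATAAA was found in 10.4%, 9.76%, 9.03% and 12% of these 4 sets, and the NF-kB motif GGGNNTTCC in 8.33%, 9.76%, 7.66% and 6.6%. The shares for the rises lay near those of all listed genes, and the 41 promoters of falls are too few for a share of a few percent to be read.

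The largest falls began with genes that had under 30 normalized counts in each NCS + MI-1061 library. FBXW10, an F-box protein gene on chromosome 17 (chr17:18744054-18779349), had 7.14, 23.7 and 7.997 in the NCS + MI-1061 libraries, against 682, 428 and 716 in the MI-1061 libraries. Every MI-1061 library was far above every NCS + MI-1061 library, and FBXW10 fell to 0.0205-fold (log2 −5.61, SE 0.51; limma adjusted p = 8.10e-08). Near-identical copies of FBXW10 exist, so its counts are uncertain, and its log2 of −5.61 was −6.35 without replicate 2 of every group. CEACAM20, a member of the carcinoembryonic antigen family, had 9.52, 6.33 and 10.7 with NCS and MI-1061, against 187, 243 and 295 with MI-1061, and fell to 0.0405-fold (adjusted p = 9.52e-08). GAL3ST1, the sulfotransferase that makes sulfatide, had 21.4, 14.2 and 5.33 with NCS and MI-1061, against 255, 365 and 279.7 with MI-1061, and fell to 0.0435-fold (adjusted p = 7.36e-07). ZNF366, a zinc finger gene, fell to 0.0616-fold (adjusted p = 5.82e-05), and SHISA7, which encodes an auxiliary subunit of GABA-A receptors, had 24.99, 22.1 and 29.3 with NCS and MI-1061, against 404, 389.7 and 404 with MI-1061, and fell to 0.0658-fold (adjusted p = 1.22e-06). CD79A, a chain of the B cell receptor complex, fell to 0.0784-fold (adjusted p = 4.08e-07), and the ankyrin repeat genes SOWAHB and ASB5 to 0.0847-fold and 0.0875-fold. SOWAHB had 64.3, 22.1 and 15.99 with NCS and MI-1061, so its replicate 1 was above 30.

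The other large falls were as follows. RYR1, the calcium release channel of skeletal muscle (chr19:38433691-38587564), had 127, 85.4 and 83.96 in the NCS + MI-1061 libraries, against 792, 1488 and 1532 in the MI-1061 libraries. The groups did not overlap, and RYR1 fell to 0.0804-fold (log2 −3.64, SE 0.42; limma adjusted p = 9.17e-07). MBP, the myelin basic protein, had 55.9, 63.3 and 66.6 with NCS and MI-1061, against 395, 1274 and 793 with MI-1061, and fell to 0.0852-fold (adjusted p = 7.96e-06). VWF, the von Willebrand factor of endothelium and platelets, had 270.2, 171 and 147 with NCS and MI-1061, against 1513, 2299 and 2535 with MI-1061, and fell to 0.092-fold (adjusted p = 2.90e-07). SEZ6, a neuronal membrane protein gene, had 33.3, 49.8 and 29.3 with NCS and MI-1061, against 255, 464 and 432 with MI-1061, and fell to 0.101-fold (adjusted p = 8.79e-06). With 1 library left out of every group, the log2 of SOWAHB (−3.56) was −4.26 and that of ASB5 (−3.52) −4.13, both without replicate 1.

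As a class, the 309 fallen genes had a median of 97.5 normalized counts with NCS and MI-1061, 364 with MI-1061, 55.7 with NCS, 27 with vehicle, 69 with NCS + MD-224 and 50.9 with MD-224. In the MI-1061 libraries they were a median of 8.32-fold above vehicle. The listing needs such genes to have been raised by MI-1061, so this level is partly fixed by it. The 1717 genes that rose had medians of 2160 with NCS and MI-1061, 802 with MI-1061, 931 with NCS and 620 with vehicle. Genomic spans of the genes called higher, lower and neither had medians of 27646, 26731 and 26904 bases, and 92.5%, 85.5% and 85.1% of the matched genes were protein-coding.

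Genes of the p53 cell-cycle arrest were mostly higher with NCS even though MI-1061 was present in both groups: 6 of the 7 listed members rose and 1 fell, beside 55.9% and 10.1% of all genes, with a median of log2 1.00 against 0.71 over all genes. CDKN1A, which encodes the cyclin-dependent kinase inhibitor p21 (chr6:36676463-36687332), had 748455, 651428 and 737907 in the NCS + MI-1061 libraries, against 365099, 349866 and 349056 in the MI-1061 libraries. The lowest NCS + MI-1061 library was well above the highest MI-1061 library, and CDKN1A rose 2.01-fold (log2 1.00, SE 0.16; limma adjusted p = 2.35e-05). BTG2, an antiproliferative gene, rose 2.12-fold (adjusted p = 0.00025), and GADD45A, a damage-inducible stress sensor, 2.2-fold (adjusted p = 0.000694). The kinase gene PLK3 rose 1.7-fold (adjusted p = 0.00736), and E2F7, which represses E2F targets, rose 1.93-fold (adjusted p = 0.000108). PLK2, a kinase of the polo family, had 22779, 19913 and 23146 with NCS and MI-1061, against 32315, 32934 and 31656 with MI-1061, and fell to 0.678-fold (adjusted p = 4.25e-05). With TMM scaling 2 members, CDKN1A and SFN, were called higher and PLK2 lower. The NCS effect was called higher with MI-1061 than without a compound for 2 members and lower for 2, beside 23.5% and 20.8% of all genes. CDKN1A rose 5.47-fold without a compound and 3.37-fold with MD-224, and PLK2 1.41-fold and 1.24-fold. The effect with MI-1061 differed from these by log2 −1.45 and −0.75 for CDKN1A (limma interaction contrasts, adjusted p = 6.98e-05 and 0.012). For PLK2 it differed by log2 −1.05 and −0.87 (adjusted p = 1.26e-05 and 9.14e-05).

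MDM2 itself (chr12:68808172-68850686) had 2373749, 2485072 and 2520807 in the NCS + MI-1061 libraries, against 1189842, 1828066 and 1698768 in the MI-1061 libraries. The groups did not overlap, and MDM2 rose 1.59-fold (log2 0.67, SE 0.17; limma adjusted p = 0.00196). With TMM scaling its log2 was 0.05 and it was not called. The spans of MDM2 and CPM overlap, so reads in the shared stretch may belong to either. PPM1D, the phosphatase that switches off p53 signalling, had 8232, 7282 and 6933 with NCS and MI-1061, against 6826, 9007 and 8879 with MI-1061, with overlapping groups and a log2 of −0.13 (adjusted p = 0.487). It was called lower with TMM scaling, at log2 −0.75.

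Of 14 listed p53 cell death genes 7 rose, 1 fell and 6 did not pass, a share of rises under the 55.9% of all genes, and their median of log2 0.42 was under the 0.71 of all genes. TP53I3, an oxidoreductase gene also called PIG3 (chr2:24077433-24084834), had 45912, 55706 and 49614 in the NCS + MI-1061 libraries, against 6197, 10204 and 7556 in the MI-1061 libraries, and rose 6.43-fold (log2 2.68, SE 0.27; limma adjusted p = 2.09e-07). APAF1, the scaffold of the apoptosome, rose 2.24-fold (adjusted p = 0.000692), PMAIP1 (NOXA), a BH3-only protein, 2.19-fold (adjusted p = 0.000212), and the pore-forming BAK1 2.01-fold (adjusted p = 3.69e-06). PERP, a desmosomal p53 target, rose 1.74-fold (adjusted p = 6.01e-07), and FAS and ZMAT3 rose 1.31-fold and 1.36-fold, both below 0 with TMM scaling (log2 −0.23 and −0.17). TNFRSF10A, the TRAIL receptor DR4, went the other way. It had 98.8, 32.4 and 69.3 with NCS and MI-1061, against 467, 301 and 407 with MI-1061, and fell to 0.16-fold (adjusted p = 0.000845), a log2 of −2.65 that is as large as that of TP53I3. The BH3-only gene BBC3 (PUMA) had 6692, 6681 and 5834 with NCS and MI-1061, against 4270, 7824 and 5705 with MI-1061, BAX had 13387, 13296 and 12855 with NCS and MI-1061, against 11558, 15409 and 14479 with MI-1061, and the groups of both overlapped. With TMM scaling 3 members were called higher (PMAIP1, BAK1 and TP53I3) and 5 lower (TNFRSF10A, TNFRSF10B, TNFRSF10D, BAX and AEN).

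In p53 metabolism and autophagy 11 of 13 listed genes rose and 2 did not pass, beside 55.9% of all genes higher, with a median of log2 0.93 against 0.71 over all genes. GLS2, a mitochondrial glutaminase, had 801, 1469 and 928 in the NCS + MI-1061 libraries, against 156, 320.2 and 152 in the MI-1061 libraries, and rose 5.22-fold (log2 2.38, SE 0.39; limma adjusted p = 4.75e-05). FUCA1, a lysosomal fucosidase, rose 2.97-fold (adjusted p = 1.16e-05), PRKAB1, a regulatory subunit of AMP-activated kinase, 2.22-fold (adjusted p = 2.15e-05), and the antioxidant enzyme GPX1 2.14-fold (adjusted p = 1.40e-05). These 4 were the members called higher with TMM scaling, and TRIAP1 was called lower (log2 −0.31). FDXR, a mitochondrial ferredoxin reductase, rose 2.13-fold (adjusted p = 0.000566), and TP53INP1, a regulator of autophagy, 1.9-fold (adjusted p = 3.33e-05). Among 4 repair and nucleotide supply genes POLH, a translesion polymerase, rose 2.14-fold (adjusted p = 0.00024) and RRM2B, a ribonucleotide reductase subunit, 1.5-fold (adjusted p = 0.00115). The damage recognition genes XPC and DDB2 had folds of 1.01 and 1.02 (adjusted p = 0.924 and 0.876), and with TMM scaling they were called lower, RRM2B was not called and POLH stayed called higher.

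Cytokine and chemokine genes held several of the strongest rises. Of 9 listed members 6 rose, 1 fell and 2 did not pass, beside 55.9% and 10.1% of all genes called higher and lower. Their median was log2 1.74 against 0.71 over all genes. The same 6 were called higher with TMM scaling, beside 30.3% of all genes. IL1B, the other IL-1 cytokine (chr2:112829751-112836779), had 10497, 10339 and 9227 in the NCS + MI-1061 libraries, against 1219, 1748 and 433 in the MI-1061 libraries. Its groups lay far apart, and it rose 10.3-fold (log2 3.36, SE 0.44; limma adjusted p = 4.07e-06). IL32, a cytokine first found in lymphocytes, had 4957, 8550 and 7439 with NCS and MI-1061, against 844, 1034 and 921 with MI-1061, and rose 7.32-fold (adjusted p = 5.99e-09). CXCL1 and CXCL3, which attract neutrophils, rose 3.34-fold (adjusted p = 0.00329) and 11.9-fold (adjusted p = 0.000846). CXCL3 had 86.9, 95.7 and 189 with NCS and MI-1061, against 5.14, 37.2 and 3.07 with MI-1061, so its fold rests on libraries with few counts. IL7, a lymphocyte growth factor, rose 2.2-fold (adjusted p = 0.00011). CSF1, the macrophage growth factor, had 17644, 17364 and 16690 with NCS and MI-1061, against 30776, 37458 and 46713 with MI-1061, and fell to 0.456-fold (log2 −1.13, SE 0.17; limma adjusted p = 1.36e-05). IL6 had 282, 361 and 387 with NCS and MI-1061, against 305, 1236 and 742 with MI-1061, and CXCL8 had 1035, 649 and 839.6 with NCS and MI-1061, against 147, 1182 and 885 with MI-1061. The MI-1061 replicates of IL6 and CXCL8 were widely spread, and neither passed the test (adjusted p = 0.134 and 0.494); with TMM scaling IL6 was called lower, at log2 −1.55.

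Of 9 listed NF-kB pathway and feedback genes 5 rose and 4 did not pass, a share of rises near the 55.9% of all genes, with a median of log2 0.43 against 0.71 over all genes. With TMM scaling TRAF1 and BIRC3 were called higher and NFKBIZ and TNIP1 lower. TRAF1, an adaptor of TNF receptors, had 740.3, 1019 and 919.6 in the NCS + MI-1061 libraries, against 138, 146 and 105 in the MI-1061 libraries, and rose 6.86-fold (log2 2.78, SE 0.25; limma adjusted p = 5.92e-08). BIRC3 (cIAP2), a ubiquitin ligase of the same complexes, had 1997, 2066 and 2062 with NCS and MI-1061, against 368, 940.2 and 618 with MI-1061, and rose 3.41-fold (adjusted p = 0.000754). CYLD, TNFAIP3 and NFKBIE, all brakes on NF-kB, rose 1.45-, 1.46- and 1.35-fold, and all 3 lay below 0 with TMM scaling (log2 −0.08, −0.07 and −0.18). The call of TNFAIP3 was lost without replicate 1 of every group (adjusted p = 0.341), without NCS + MI-1061 replicate 1 (0.0729) and without MI-1061 replicate 1 (0.13), and that of CYLD without replicate 3 of every group (0.0669). NFKBIA, the inhibitor IkB-alpha, had 3099, 3359 and 2901 with NCS and MI-1061, against 1825, 3423 and 2530 with MI-1061, with overlapping groups.

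Secreted proteases and their inhibitors rose in 10 of 16 listed members and did not pass in 6, a share of rises near the 55.9% of all genes, with a median of log2 1.19 against 0.71 over all genes, and with TMM scaling 6 were called higher and 2 lower (TIMP1 and IGFBP3). MMP3, the matrix protease stromelysin, had 849, 392 and 496 in the NCS + MI-1061 libraries, against 38.6, 33.6 and 44.6 in the MI-1061 libraries. The groups did not overlap, with replicate 1 the highest, and MMP3 rose 13.9-fold (log2 3.79, SE 0.52; limma adjusted p = 6.41e-06). SERPINE2 rose 2.45-fold (adjusted p = 2.93e-07), PLAT, the tissue plasminogen activator, 2.68-fold (adjusted p = 3.49e-07), and IGFBP4, a binding protein of insulin-like growth factors, 2.31-fold (adjusted p = 5.03e-07). MMP1 had 232, 104 and 155 with NCS and MI-1061, against 51.5, 143 and 49.2 with MI-1061, and SERPINB2 had 906, 322 and 432 with NCS and MI-1061, against 239, 209 and 197 with MI-1061, and neither passed (adjusted p = 0.111 and 0.154).

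Growth factor genes included further EGF receptor ligands. Of 13 listed ligands and receptors 7 rose and 1 fell, shares near the 55.9% and 10.1% of all genes, with a median of log2 0.80 against 0.71, and with TMM scaling 4 were called higher (AREG, EREG, MET and KITLG) and 3 lower. EREG, the ligand epiregulin, had 281, 201 and 144 with NCS and MI-1061, against 39.9, 53.96 and 39.96 with MI-1061, and rose 4.48-fold (adjusted p = 0.0033). HBEGF, a heparin-binding ligand of the same receptor, had 5165, 5555 and 5227 with NCS and MI-1061, against 2740, 2987 and 2619 with MI-1061, and rose 1.91-fold (adjusted p = 0.00154). MET, the hepatocyte growth factor receptor, had 12049, 10878 and 11626 in the NCS + MI-1061 libraries, against 2921, 3373 and 2170 in the MI-1061 libraries, and rose 4.14-fold (log2 2.05, SE 0.23; limma adjusted p = 7.02e-07). KITLG, the ligand of KIT, rose 3.06-fold (adjusted p = 0.00011). KDR, a VEGF receptor of endothelium, had 205, 245 and 192 with NCS and MI-1061, against 431, 465 and 701 with MI-1061, and fell to 0.41-fold (adjusted p = 0.000598); the call was lost without replicate 3 of every group (adjusted p = 0.0537).

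Sensing of cytosolic DNA and RNA polymerase III are both in the title of the series, and few interferon and sensing genes were listed. Of 35 names on the interferon-stimulated list 6 were listed. Of these 4 rose, beside 55.9% of all genes, with a median of log2 1.27 against 0.71. With TMM scaling 1 of them (STAT2) was called higher, beside 30.3% of all genes, and TRIM22 was called lower. ISG15, a ubiquitin-like modifier (chr1:1013497-1014540), had 1763, 3552 and 2282 in the NCS + MI-1061 libraries, against 978, 1627 and 1217 in the MI-1061 libraries. The lowest NCS + MI-1061 library was just above the highest MI-1061 library, and ISG15 rose 1.95-fold (log2 0.96, SE 0.25; limma adjusted p = 0.00306). Its call was lost without replicate 3 of every group (adjusted p = 0.0562). MX1, an antiviral GTPase, had 1526, 3382 and 2015 with NCS and MI-1061, against 656, 1009 and 719 with MI-1061, and rose 2.79-fold (adjusted p = 0.00158), and STAT2, a transcription factor of interferon signalling, rose 2.09-fold (adjusted p = 3.46e-07). OAS2, which makes the activator of RNase L, had 119, 547 and 184 with NCS and MI-1061, against 48.9, 91.1 and 58.4 with MI-1061, and rose 3.55-fold (adjusted p = 0.00562). Replicate 2 was its highest in both groups: its log2 of 1.83 was 1.20 without NCS + MI-1061 replicate 2, and the call was lost without replicate 3 of every group (adjusted p = 0.0632). RSAD2 (viperin) had 48.8, 146 and 37.3 with NCS and MI-1061, against 11.6, 26.4 and 21.5 with MI-1061, and did not pass (adjusted p = 0.0687).

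Of 4 listed nucleic acid sensors 2 rose and 1 fell, beside 55.9% and 10.1% of all genes. With TMM scaling TMEM173 was called higher and IFI16 and TLR9 lower. TMEM173, which encodes STING, the adaptor of cytosolic DNA sensing (chr5:139475533-139482758), had 7901, 10214 and 7594 in the NCS + MI-1061 libraries, against 2608, 2943 and 2773 in the MI-1061 libraries. The groups did not overlap, and it rose 3.06-fold (log2 1.62, SE 0.12; limma adjusted p = 1.40e-08), a call kept with TMM scaling. TLR3, a receptor for double-stranded RNA, rose 1.45-fold (adjusted p = 0.0388), but its log2 was −0.08 with TMM scaling and its call was lost in 5 of 9 fits that left out libraries. TLR9, a receptor for DNA, had 47.6, 43.5 and 19.99 with NCS and MI-1061, against 73.3, 114 and 143 with MI-1061, and fell to 0.333-fold (adjusted p = 0.00428); without replicate 3 of every group its log2 was −0.99 (adjusted p = 0.116). IFI16, a nuclear DNA sensor, had 11444, 12376 and 11303 with NCS and MI-1061, against 9303, 14715 and 12959 with MI-1061, with overlapping groups, and a log2 of −0.66 with TMM scaling (adjusted p = 0.00383). Among 4 listed antigen presentation genes only ERAP2, a peptide trimming enzyme, passed, at 1.69-fold (adjusted p = 7.55e-05); HLA-B and HLA-C had folds of 0.924 and 0.918 with overlapping groups, and with TMM scaling HLA-B and HLA-C were called lower and ERAP2 was not called.

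In the RNA polymerase III machinery 4 of 27 names were listed, of which 2 rose and 1 fell, beside 55.9% and 10.1% of all genes. GTF3C6, a TFIIIC subunit, had 4380, 4043 and 4403 with NCS and MI-1061, against 2962, 2057 and 2021 with MI-1061, and rose 1.85-fold (adjusted p = 5.92e-05). BRF2, which serves promoters such as that of U6, had 4024, 3699 and 4278 with NCS and MI-1061, against 2864, 1698 and 1912 with MI-1061, and rose 1.9-fold (adjusted p = 0.000711), a call lost without replicate 3 of every group (adjusted p = 0.054). SNAPC1, a subunit of the snRNA activating complex, had 2921, 3107 and 2959 with NCS and MI-1061, against 5490, 3131 and 5008 with MI-1061, and fell to 0.678-fold (adjusted p = 0.0244). MI-1061 replicate 2 lay near the NCS + MI-1061 libraries, and the SNAPC1 call was lost in 6 of 9 fits that left out libraries. With TMM scaling SNAPC1 was called lower and the rises of GTF3C6 and BRF2 were not called.

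Complement and innate receptor genes rose in 6 of 7 listed members, beside 55.9% of all genes, with a median of log2 1.09 against 0.71, and 3 genes (C3, TREM1 and C1R) were called higher with TMM scaling and 2 lower (CD55 and CD46). C3, the central complement component, had 1939, 4669 and 2238 in the NCS + MI-1061 libraries, against 307, 863 and 506 in the MI-1061 libraries, with replicate 2 the highest in both groups. C3 rose 5.31-fold (log2 2.41, SE 0.62; limma adjusted p = 0.00256). C1R and C1S, proteases of the classical pathway, rose 2.2-fold (adjusted p = 0.000163) and 1.61-fold (adjusted p = 0.000514).

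Replication-dependent histone transcripts, which usually lack a poly(A) tail, gave a divided answer: of 23 listed genes 11 rose, 1 fell and 11 did not pass, beside 55.9% and 10.1% of all genes, with a median of log2 0.66 against 0.71. HIST1H2BG had 743, 992 and 702 in the NCS + MI-1061 libraries, against 201, 234 and 192 in the MI-1061 libraries. It rose 3.84-fold (log2 1.94, SE 0.28; limma adjusted p = 1.04e-05), HIST1H2BC 3.32-fold (adjusted p = 0.00025) and HIST1H2BJ 3.25-fold (adjusted p = 7.92e-06). HIST1H4H had 433, 378 and 477 with NCS and MI-1061, against 374, 317 and 254 with MI-1061, and did not pass (adjusted p = 0.0542). HIST1H2BE had 17.9, 11.1 and 15.99 with NCS and MI-1061, against 32.2, 52.8 and 21.5 with MI-1061, and fell to 0.458-fold (adjusted p = 0.0487). Set beside the effect of NCS in cells without a compound, where 22 of the 23 rose with a median of log2 2.28, the effect with MI-1061 was called lower for 17 genes and higher for 1, HIST1H2BJ. The backgrounds for these calls over all genes are 54.0% for rises without a compound, 20.8% for lower effects and 23.5% for higher ones. With TMM scaling 4 histone genes were called higher and 3 lower with NCS and MI-1061. Many histone genes are nearly identical in sequence, so their separate values are uncertain.

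Immediate early and MAPK feedback genes mostly did not pass the test. Of 17 listed members 3 rose, 2 fell and 12 did not pass, beside 55.9% and 10.1% of all genes called higher and lower. Their median was log2 −0.09 against 0.71 over all genes. FOSB, an AP-1 subunit (chr19:45467996-45475179), had 609, 651 and 522 in the NCS + MI-1061 libraries, against 2319, 1855 and 3736 in the MI-1061 libraries. All NCS + MI-1061 libraries lay below the MI-1061 libraries, and FOSB fell to 0.235-fold (log2 −2.09, SE 0.21; limma adjusted p = 2.27e-07). MAFF, a small MAF protein, fell to 0.709-fold (adjusted p = 0.0141). JUND, another AP-1 subunit, had 4611, 4678 and 5770 with NCS and MI-1061, against 1583, 2835 and 2404 with MI-1061, and rose 2.26-fold (adjusted p = 0.000121). EGR2, a zinc finger factor, had 849, 864 and 739.7 with NCS and MI-1061, against 56.6, 355 and 231 with MI-1061. It rose 4.86-fold (adjusted p = 0.0108), but MI-1061 replicate 1 was far below the other replicates, and the call was lost without it (log2 1.51, adjusted p = 0.0803) or without replicate 1 of every group (log2 1.48, adjusted p = 0.182). IER5 rose 1.29-fold (adjusted p = 0.00804), a call lost without replicate 1 or replicate 3 of every group (adjusted p = 0.0644 and 0.088), and with TMM scaling it was called lower (log2 −0.25); JUND was then the 1 member called higher, and 6 were called lower. FOS had 206, 214 and 239.9 with NCS and MI-1061, against 107, 461 and 510.3 with MI-1061, and JUNB had 5513, 6002 and 4822 with NCS and MI-1061, against 3558, 12014 and 10298 with MI-1061, with MI-1061 replicate 1 low for both.

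Stress response genes were mixed, and their counts stand beside 55.9% of all genes called higher and 10.1% called lower. Of 8 genes of the integrated stress response 3 rose: NUPR1, a small chromatin-associated stress protein, had 19991, 22711 and 20029 with NCS and MI-1061, against 6260, 7740 and 6830 with MI-1061, and rose 3.02-fold (adjusted p = 0.000256). CHAC1, which degrades glutathione, rose 2.6-fold (adjusted p = 0.02) and PSAT1, an enzyme of serine synthesis, 1.46-fold (adjusted p = 0.0112). The CHAC1 call was lost in 5 of 9 fits that left out libraries, and the PSAT1 call without replicate 3 of every group (adjusted p = 0.0568), with a log2 of −0.07 with TMM scaling. GDF15, a stress cytokine and p53 target, had 479833, 393669 and 404317 with NCS and MI-1061, against 255976, 319735 and 314112 with MI-1061, and did not pass (adjusted p = 0.303). With TMM scaling NUPR1 alone of the list was called higher and PPP1R15A lower.

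Targets of NRF2, which answers oxidative stress, split into 2 that rose and 3 that fell among 5 listed, with a median of log2 −0.66. Over all genes 55.9% rose and 10.1% fell, with a median of log2 0.71. SRXN1, which repairs oxidized peroxiredoxins, had 4363, 4114 and 4225 in the NCS + MI-1061 libraries, against 9708, 7430 and 8355 in the MI-1061 libraries. The groups did not overlap, and SRXN1 fell to 0.501-fold (adjusted p = 7.31e-05). AKR1B10, an aldo-keto reductase, fell to 0.437-fold (adjusted p = 0.00368), and OSGIN1 to 0.633-fold (adjusted p = 0.00406). AKR1C1, another aldo-keto reductase, had 545, 684 and 461 with NCS and MI-1061, against 149, 139 and 126 with MI-1061, and rose 4.01-fold (adjusted p = 1.39e-05), and the heme oxygenase gene HMOX1 rose 2.09-fold (adjusted p = 0.000318). With TMM scaling the 3 falls and the rise of AKR1C1 were called. The 3 listed cholesterol genes, HMGCS1, INSIG1 and MSMO1, had folds of 0.753, 1.34 and 0.984. Limma called 0 of them, 0 had an unadjusted p under 0.05, and with TMM scaling HMGCS1 and MSMO1 were called lower. With a replicate block in the fit INSIG1 was called higher and HMGCS1 lower (limma adjusted p = 0.0113 and 0.0483).

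Of 18 listed lysosomal genes 12 rose and 3 fell, beside 55.9% and 10.1% of all genes, and their median of log2 0.55 was under the 0.71 of all genes. TFEB, a transcription factor that drives lysosomal genes (chr6:41683978-41736223), had 425, 558 and 391 in the NCS + MI-1061 libraries, against 86.2, 110.3 and 79.9 in the MI-1061 libraries, and rose 4.91-fold (log2 2.30, SE 0.24; limma adjusted p = 3.49e-07). MAN2B1, the lysosomal alpha-mannosidase, rose 3.04-fold (adjusted p = 1.72e-06). CTSB, the protease cathepsin B, had 154985, 146575 and 155402 with NCS and MI-1061, against 191186, 194625 and 245998 with MI-1061, and fell to 0.728-fold (adjusted p = 0.00192), and the cholesterol exporter NPC1 fell to 0.791-fold (adjusted p = 0.0246). With TMM scaling 3 genes, TFEB and MAN2B1 among them, were called higher and 6 lower, so the direction of the list as a whole depends on the scaling (median log2 −0.07).

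Genes of stratified epithelia moved apart in these osteosarcoma cells. Of 13 listed members 6 rose, 3 fell and 4 did not pass, beside 55.9% and 10.1% of all genes. With TMM scaling 3 were called higher (KRT15, COL17A1 and DSP) and 4 lower, beside 30.3% and 23.7%. DSP, the desmosomal plaque protein desmoplakin (chr6:7541671-7586714), had 22683, 22642 and 25865 in the NCS + MI-1061 libraries, against 1519, 3053 and 1958 in the MI-1061 libraries. Its groups lay far apart, and it rose 11.3-fold (log2 3.50, SE 0.21; limma adjusted p = 1.38e-09). The keratin KRT15 rose 2.39-fold (adjusted p = 7.62e-05). KRT4, another keratin (chr12:52806549-52814116), had 938, 774 and 716 in the NCS + MI-1061 libraries, against 3915, 7033 and 6392 in the MI-1061 libraries. The groups did not overlap, and KRT4 fell to 0.144-fold (log2 −2.80, SE 0.28; limma adjusted p = 2.42e-07). KRT78 had 844, 737 and 634 with NCS and MI-1061, against 2365, 6478 and 5696 with MI-1061, and fell to 0.166-fold (adjusted p = 2.48e-05). The summed counts of the 13 genes were 79759 to 83007 with NCS and MI-1061 and 48129 to 57046 with MI-1061.

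Striated muscle genes fell: 5 of the 6 listed members were called lower, under TMM scaling too, against 10.1% of all genes. TTN, the giant sarcomere protein titin (chr2:178525989-178807423), had 151, 91.7 and 163 in the NCS + MI-1061 libraries, against 574, 1011 and 1104 in the MI-1061 libraries. All NCS + MI-1061 libraries lay below the MI-1061 libraries, and TTN fell to 0.153-fold (log2 −2.71, SE 0.37; limma adjusted p = 6.81e-06). NEB, nebulin of the thin filament, had 288, 183 and 147 with NCS and MI-1061, against 710, 1082 and 1099 with MI-1061, and fell to 0.21-fold (adjusted p = 5.47e-05). MYPN, the sarcomere protein myopalladin, fell to 0.445-fold (adjusted p = 0.0124), and MYOM1, a protein of the M band, to 0.271-fold (adjusted p = 0.00857), a call lost without replicate 3 of every group (adjusted p = 0.135). RYR1, described above, was the fifth. ACTN2, an actin cross-linker of the Z disc, had 98.8, 114 and 148 with NCS and MI-1061, against 51.5, 83.9 and 56.9 with MI-1061, and did not pass. TTN overlaps an antisense gene, and whether the counting used strand is not given in the sources used here.

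Extracellular matrix genes rose in 8 of 10 listed members and fell in 1 (COL4A3), beside 55.9% and 10.1% of all genes, with a median of log2 1.31 against 0.71. With TMM scaling 5 were called higher and 1, COL4A3, lower. COL1A2, a chain of type I collagen, the main collagen of bone, had 42237, 36621 and 46026 in the NCS + MI-1061 libraries, against 13461, 5370 and 10516 in the MI-1061 libraries. MI-1061 replicate 2 was the lowest, the groups did not overlap, and COL1A2 rose 4.54-fold (log2 2.18, SE 0.28; limma adjusted p = 3.20e-06). VCAN, the proteoglycan versican, had 32379, 34460 and 30956 with NCS and MI-1061, against 6513, 9026 and 12049 with MI-1061, and rose 3.65-fold (adjusted p = 1.40e-05). HSPG2, the proteoglycan perlecan, rose 2.55-fold (adjusted p = 2.51e-08), and COL7A1, the collagen of anchoring fibrils, 2.56-fold (adjusted p = 8.87e-07). Of 4 genes driven by TGF-beta or YAP, LATS2, a kinase of the Hippo pathway, had 6779, 5963 and 6471 with NCS and MI-1061, against 14267, 17276 and 18564 with MI-1061, and fell to 0.385-fold (adjusted p = 4.38e-06), while ID1 rose 2.01-fold (adjusted p = 0.00517), a call lost with TMM scaling and without replicate 3 of every group (adjusted p = 0.0886). With TMM scaling LATS2 and AMOTL2 were called lower. Of 2 listed genes of the double-strand break response XRCC4, a partner of DNA ligase IV in end joining, had 2480, 1824 and 2207 with NCS and MI-1061, against 401, 422 and 321 with MI-1061, and rose 5.67-fold (log2 2.50, SE 0.22; limma adjusted p = 5.31e-08), a call kept with TMM scaling. RAD51C, a recombination protein, had 3564, 4656 and 4120 with NCS and MI-1061, against 2205, 4282 and 3580 with MI-1061, and did not pass.

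Markers of cell types were checked on the same libraries. The 3 bone lineage markers in the table, of 15 on the list, all rose: SPP1 (osteopontin) 2.61-fold (adjusted p = 0.00494), BMP2 2.59-fold (adjusted p = 0.000653), and COL1A2 as above, with summed counts of 43952 to 54068 with NCS and MI-1061 and 10140 to 15745 with MI-1061; SPP1 was not called with TMM scaling. The other 12 markers, RUNX2 and SP7 among them, are not analysed here. Of 4 listed haematopoietic markers CD68, a lysosomal protein of macrophages that other cells make too, rose 4.86-fold (adjusted p = 2.57e-06), CD163 fell to 0.255-fold (adjusted p = 0.00789), and ITGAM and LAPTM5 did not pass; with TMM scaling CD68 was called higher and CD163 and LAPTM5 lower. Their sums were 4872 to 4983 with NCS and MI-1061 and 2551 to 3098 with MI-1061. Both listed endothelial markers, VWF and KDR, fell, with TMM scaling too, with sums of 339 to 475 with NCS and MI-1061 and 1943 to 3235 with MI-1061. Of these 9 markers, 0 were at 0 in the 6 libraries. These markers moved with the rises and falls of this comparison, and their part in them was not tested.

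**Figure D3:**
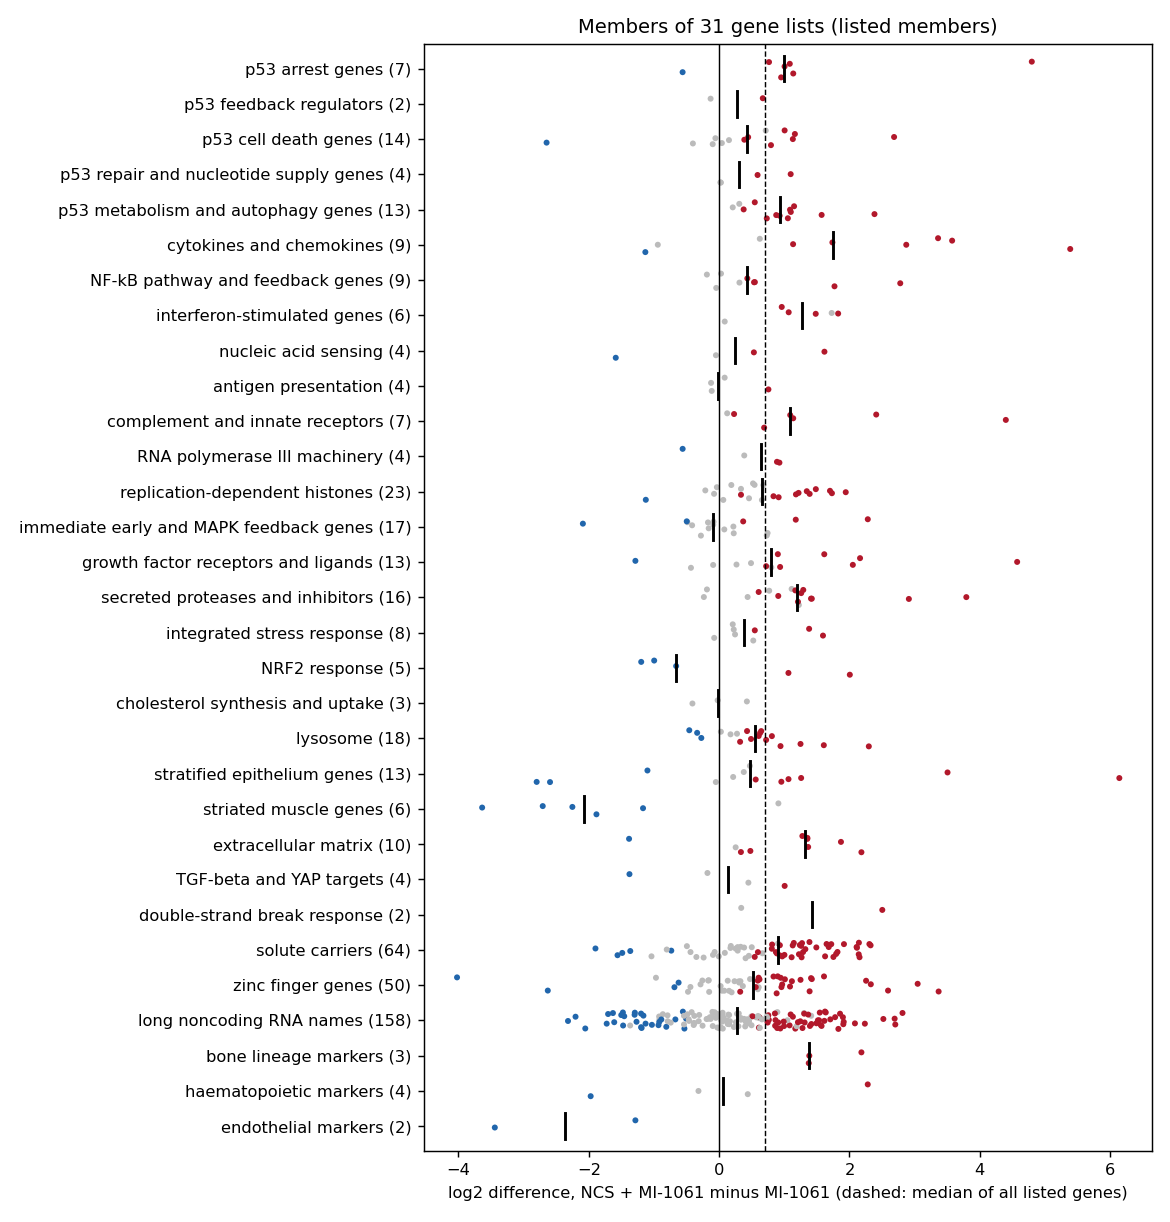
Each point is a listed member of 1 of 31 gene lists, placed by its log2 difference of NCS + MI-1061 minus MI-1061 (x axis), red where called higher, blue where called lower and grey where neither; black bars are list medians and the number of listed members follows each name. The medians run from −2.36 for endothelial markers and −2.07 for striated muscle genes to 1.74 for cytokines and chemokines, against the dashed line at 0.71 for all genes.

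The effect of NCS was also measured without MI-1061, in NCS against vehicle libraries, and with MD-224 in place of MI-1061, in libraries that are not part of this comparison. NCS against vehicle gave 1659 genes higher (54.0%) and 40 lower (1.30%), 55.3% in either direction, or 456 and 467 with TMM scaling. NCS + MD-224 against MD-224 gave 1198 higher (39.0%) and 18 lower (0.586%), 39.6% in either direction, or 428 and 223 with TMM scaling. Whether the NCS, MD-224 or NCS + MD-224 libraries took part in choosing the listed genes is not known. Of the 83 genes that rose at least 8-fold with MI-1061, 67 (80.7%) were also called higher with MD-224, with a median there of log2 2.30, against 39.0% and 0.45 over all genes. Of all 1717 rises, 793 were among the 1198 with MD-224, which is 46.2% of the first list and 66.2% of the second. Without a compound 53 of the 83 (63.9%) and 964 of the 1717 (56.1%) were called higher, beside 54.0% of all genes. The share of the 1717 thus lay near that of all genes. The falls did not recur in this way: of the 18 genes that fell at least 8-fold with MI-1061, 1 was called lower with MD-224, the others were not called, and their median there was log2 −0.08. Of all 309 falls, 4 (1.29%) were called lower and 76 (24.6%) higher with MD-224, beside 0.586% and 39.0% of all genes. Without a compound 1 (0.324%) was called lower and 169 (54.7%) higher, beside 1.30% and 54.0%. The listing requires fallen genes to have been raised over vehicle by MI-1061 and asks nothing of MD-224. Their medians were 364 with MI-1061, 50.9 with MD-224 and 27 with vehicle. They thus had little room to fall in the other settings, and the lack of recurrence was largely set in advance.

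The size of the effect was compared directly by an interaction contrast. The effect of NCS was called higher with MI-1061 than without a compound in 721 genes (23.5%) and lower in 639 (20.8%), 44.3% together, and TMM scaling, which moved this median by −0.01, gave 728 and 656. Against the effect with MD-224 it was called higher in 761 genes (24.8%) and lower in 435 (14.2%), 38.9% together, or in 594 and 538 with TMM scaling. Without replicate 3 of every group the counts were 365 and 284 for the contrast without a compound and 243 and 113 for that with MD-224. Of the 309 fallen genes 286 had a lower effect than without a compound and 246 a lower effect than with MD-224, and since these contrasts use the same libraries as the falls, the counts describe the genes and support nothing.

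DERA, an enzyme that breaks down deoxyribose phosphate, had 10936, 13090 and 11899 in the NCS + MI-1061 libraries, against 1210, 904 and 709 in the MI-1061 libraries. It had 1442, 1264 and 1336 with NCS, against 2375, 1860 and 2408 with vehicle. NCS went with more DERA transcript with MI-1061 (13-fold) and MD-224 (1.46-fold, adjusted p = 0.0215) and with less without a compound (0.612-fold). The effect with MI-1061 exceeded that without a compound by log2 4.41 (SE 0.25; adjusted p = 2.05e-09) and that with MD-224 by log2 3.15 (SE 0.25; adjusted p = 5.53e-07). NEMP2, a nuclear envelope protein gene, showed the same turn, with 1999, 1813 and 1631 with NCS and MI-1061, against 230.2, 208 and 206 with MI-1061, and 277, 253 and 220.1 with NCS, against 555, 627 and 659 with vehicle. XRCC4 rose with MI-1061 and fell to 0.551-fold (adjusted p = 0.00379) without a compound, a difference of log2 3.36 (SE 0.31; adjusted p = 9.50e-07). E2F7 rose 1.93-fold with MI-1061 and fell to 0.452-fold without a compound, a difference of log2 2.10 (SE 0.24; adjusted p = 6.92e-06). SFN had 15.7, 30.01 and 25.5 with NCS, against 37.2, 15.4 and 24.6 with vehicle, and DRAXIN, an axon guidance protein gene, 29.4, 25.3 and 22.4 against 24.1, 44.2 and 24.6. The NCS effect on both differed from that with MI-1061, by log2 4.87 (SE 1.20; adjusted p = 0.00365) for SFN and 3.95 (SE 0.71; adjusted p = 0.000325) for DRAXIN. With MD-224 these genes were higher with NCS as well: NEMP2 rose 1.46-fold, XRCC4 2.22-fold, E2F7 2.68-fold, SFN 14.4-fold and DRAXIN 5.24-fold (adjusted p = 0.0184, 0.00065, 1.26e-05, 0.00202 and 0.00142). The median of all genes with MD-224 was 1.36-fold. With TMM scaling DERA and NEMP2 were at log2 0.10 with MD-224 and not called (limma adjusted p = 0.732 and 0.726), while XRCC4, E2F7 and SFN stayed called. The effect with MI-1061 was called different from that with MD-224 for NEMP2 and XRCC4 and not for E2F7, SFN and DRAXIN.

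**Figure D4:**
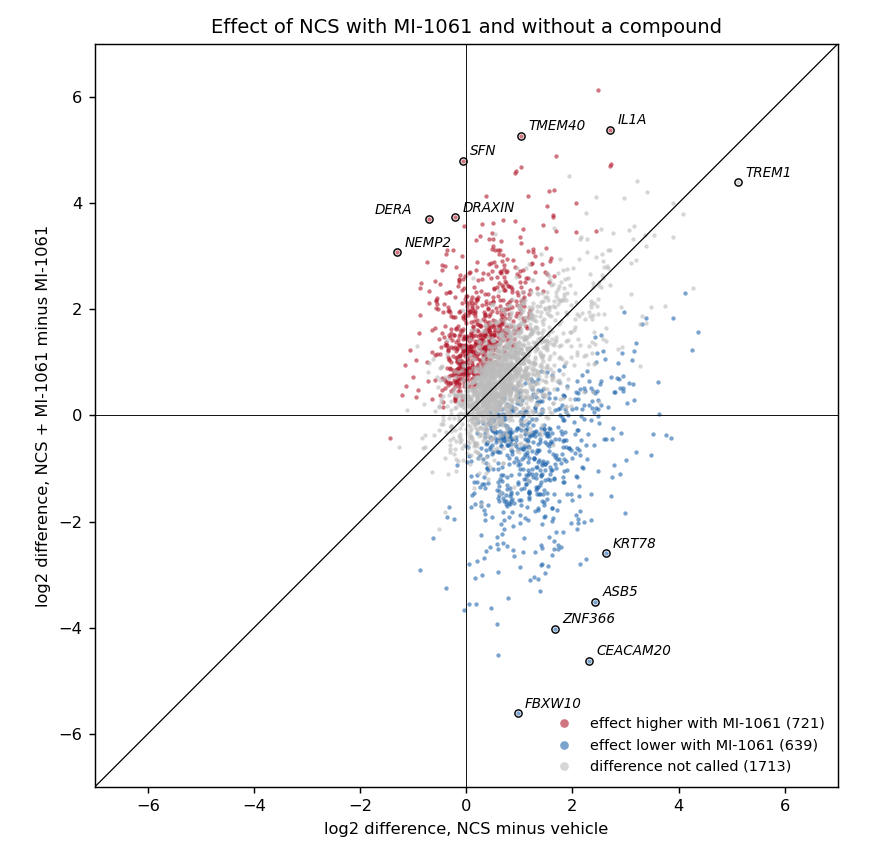
Each point is 1 of 3073 listed genes, placed by its log2 difference of NCS minus vehicle (x axis) and of NCS + MI-1061 minus MI-1061 (y axis), with equal effects on the diagonal. Red marks 721 genes whose NCS effect was called higher with MI-1061 and blue 639 whose effect was called lower. SFN, DERA and NEMP2 lie in the upper part, at −0.07, −0.71 and −1.30 on the x axis, and FBXW10 and CEACAM20 at the bottom.

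For IL1A the rise with NCS held in all 3 settings and differed in size. It had 467, 397 and 367 with NCS, against 50.3, 97.1 and 48.1 with vehicle, and 1404, 848 and 1176 with NCS and MD-224, against 115, 122 and 85.8 with MD-224. The fold was 41.8 with MI-1061, 6.53 without a compound and 10.4 with MD-224, and both differences were called, at log2 2.68 (SE 0.40; adjusted p = 5.78e-05) and 2.00 (SE 0.40; adjusted p = 0.000865). Among the 9 listed cytokine genes the effect was called higher than without a compound for 1, IL1A, and lower for 3. The median of these 9 was log2 3.10 without a compound and 2.42 with MD-224, against 1.74 with MI-1061. IL1B rose 14.8-fold without a compound and 11.6-fold with MD-224, and neither difference was called (adjusted p = 0.523 and 0.848). COL17A1 rose 40.2-fold with MD-224 and 5.56-fold without a compound; its effect with MI-1061 was higher than without a compound by log2 3.66 (SE 0.86; adjusted p = 0.00261), and its difference from that with MD-224 was not called, with a 95% interval of log2 −1.01 to 2.63. AREG rose 13.2-fold with MD-224, where it had 829.9, 393 and 275, against 39.01, 48.9 and 18.9 with MD-224 only, and the interval of its difference was log2 −0.37 to 2.08. TP53I3, in contrast, rose 1.64-fold with MD-224 against 6.43-fold with MI-1061, a difference of log2 1.97 (SE 0.38; adjusted p = 0.000706).

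Other genes responded to NCS differently with the 2 MDM2 compounds. DNAJC18, a co-chaperone gene, had 3221, 5585 and 3440 with NCS and MI-1061, against 356, 365 and 426 with MI-1061, and 1155, 1368 and 1111 with NCS and MD-224, against 1464, 1284 and 1552 with MD-224, a difference of log2 3.62 (SE 0.25; adjusted p = 1.47e-07). PALMD, palmdelphin, rose 5.49-fold with MI-1061 and fell to 0.545-fold with MD-224 (adjusted p = 0.0218). QPRT, an enzyme of NAD synthesis, had 333, 308 and 365 with NCS and MI-1061, against 43.7, 9.59 and 32.3 with MI-1061, and 211, 249 and 199 with NCS and MD-224, against 122, 251 and 184 with MD-224. HOGA1, a mitochondrial aldolase, had under 20 normalized counts in every MI-1061 library, and its log2 of 3.63 was 4.57 without replicate 1 and 2.66 without replicate 2 of every group.

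The fallen genes had another profile. KRT4 had 124, 104 and 99.4 with NCS, against 18.6, 29.8 and 24.6 with vehicle, so that it rose 4.4-fold there and fell with MI-1061, a difference of log2 −4.94 (SE 0.40; adjusted p = 3.01e-07). TTN had 171, 97.9 and 133 with NCS, against 32.8, 17.3 and 32.7 with vehicle, and 149.7, 129 and 221 with NCS and MD-224, against 47.04, 23.2 and 21.99 with MD-224. It rose 4.78-fold and 5.46-fold in these settings and fell with MI-1061, with differences of log2 −4.96 (SE 0.53; adjusted p = 3.11e-06) and −5.16 (SE 0.53; adjusted p = 5.37e-06). With NCS the 3 TTN groups lay close together, and the MI-1061 libraries stood apart as the highest. FBXW10 had under 25 normalized counts in every library outside the MI-1061 group. VWF had 95.2, 150 and 134 with NCS, against 89.7, 89.4 and 46.04 with vehicle, which did not pass (adjusted p = 0.07), and its difference was log2 −4.22 (SE 0.50; adjusted p = 9.25e-06). CSF1 rose 1.62-fold without a compound and fell with both MI-1061 and MD-224 (0.678-fold, adjusted p = 0.0132). The median of all genes without a compound was 1.58-fold, and with TMM scaling the rise of CSF1 there was not called (log2 0.08, limma adjusted p = 0.739).

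**Figure D5:**
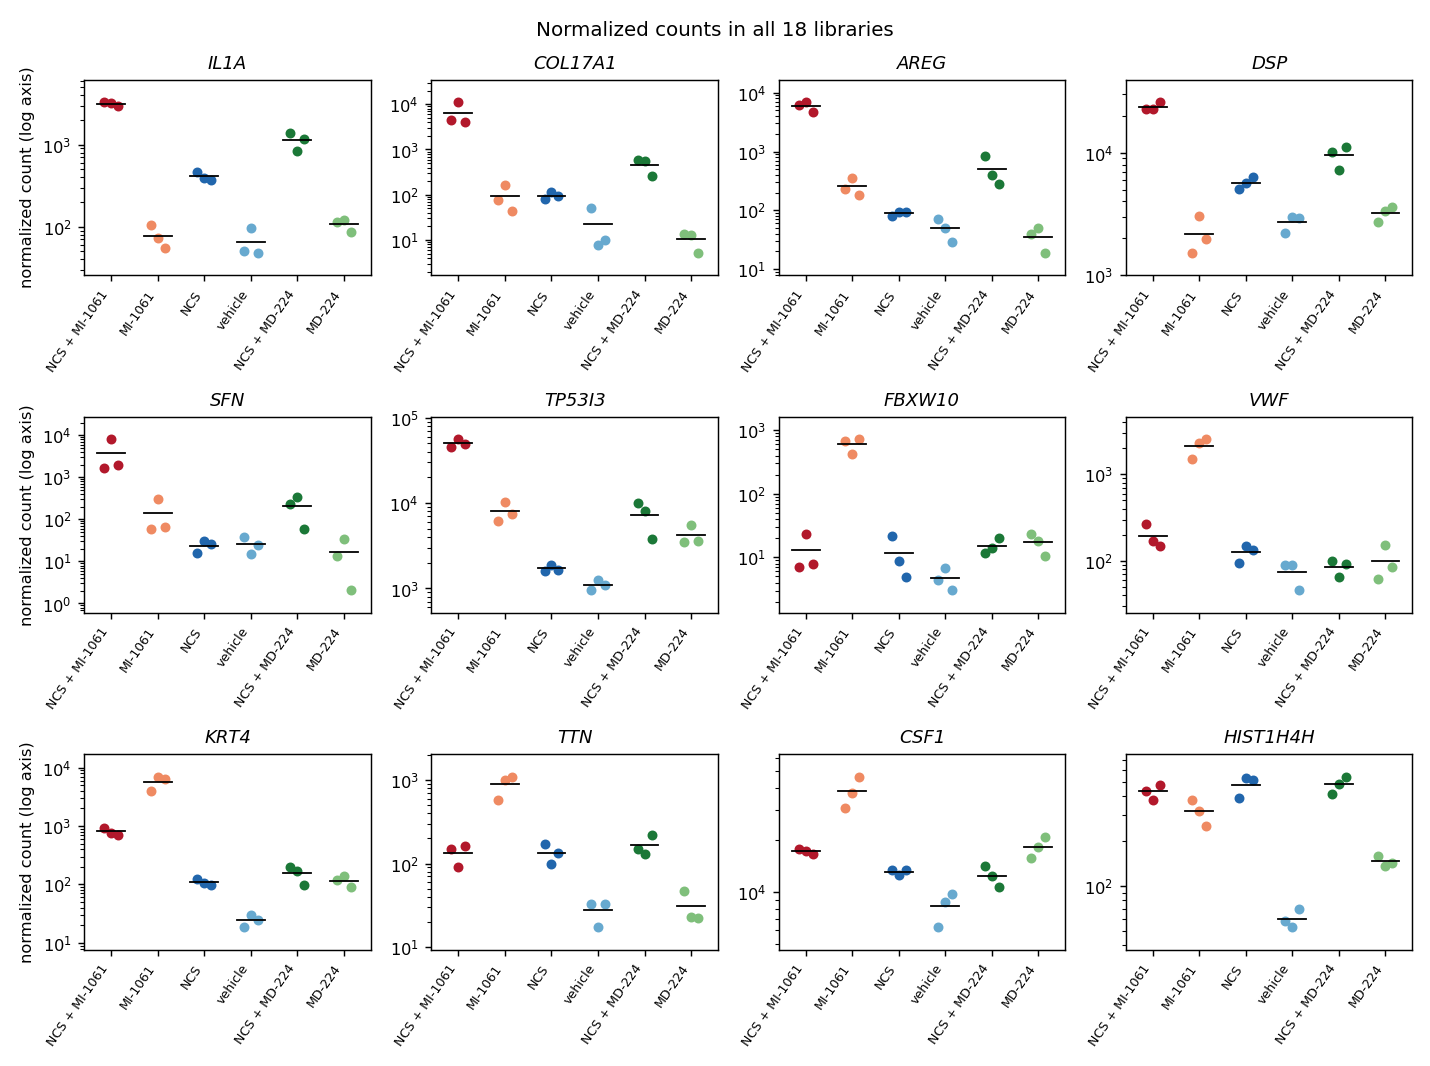
Normalized counts (log axis) of 12 genes in all 18 libraries, 1 point per library with a black line at the group mean, each NCS group to the left of the group without NCS. IL1A, COL17A1, AREG, DSP, SFN and TP53I3 are highest with NCS and MI-1061, FBXW10, VWF, KRT4, TTN and CSF1 are highest with MI-1061, and HIST1H4H was lowest with vehicle.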

How the data were processed

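Poly(A) RNA of SJSA-1 cells was sequenced in 18 libraries, 6 of which form the comparison. The authors aligned reads with HISAT2 2.0.5.2 to GRCh38, counted them with featureCounts 1.6.3 and used DESeq2 2.11.40.6, per the submitters' processing notes. The deposited values are normalized counts per gene, a signal that the authors scaled between libraries, and whether counting used strand is not given in the sources used here. Of 137 named genes with coordinates 63 overlap another RefSeq gene's span. Of 3074 listed genes 3000 matched RefSeq (GRCh38.p14).

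Genes with at least 10 normalized counts in at least 3 libraries (3073, with 1 below) were fitted with limma 3.58.1 (R 4.3.3), trended variance, on log2(value + 1), all 6 groups in 1 fit, two-sided, with Benjamini-Hochberg adjustment. Differences of the NCS effect are interaction contrasts of the same fit. edgeR 4.0.16 gave TMM factors only. Low counts limit precision, and library depths are unknown. Replicates of a group correlated at 0.9864 to 0.9921 with NCS and MI-1061 and 0.9716 to 0.9830 with MI-1061 (Pearson, across genes, which are not independent). Scripts were tested on simulated data. Alternatives changed the pseudocount, filter, scaling, groups in the fit, replicate block and libraries.

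The members and gene lists were chosen with earlier results of these data known. Genes named are a fixed few, the 12 largest rises and 12 largest falls (mean of at least 50, current symbol, no overlap of libraries), from each list the members with the lowest p, at most 4, and the 5 largest differences each way for each interaction contrast. Other members are named with their values and were chosen after these were seen. A few genes are not reported here. The treatment protocol spells the inhibitor differently from the sample titles, which were followed.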

Additional observations from a re-analysis of the deposited data

Results flagged for a closer look

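The effect of NCS differed between cells with MI-1061 and cells without a compound by the interaction contrast of limma in 721 genes where it was higher and 639 where it was lower. Among the named genes the difference was log2 4.87 for SFN, 4.41 for DERA, 4.37 for NEMP2, 4.24 for TMEM40 and 3.95 for DRAXIN. It was log2 −6.94 for CEACAM20, −6.58 for FBXW10, −5.94 for ASB5, −5.70 for ZNF366 and −5.22 for KRT78. In the vehicle libraries CEACAM20 had 2.19, 1.92 and 2.05, and FBXW10 4.38, 6.73 and 3.07. ASB5 had 4.38, 8.65 and 4.09 there, and ZNF366 2.19, 3.84 and 2.05. With so few counts the sizes of these differences are uncertain.

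Between cells with MI-1061 and cells with MD-224 the effect was higher in 761 genes and lower in 435. The difference was log2 4.15 for HOGA1, 3.62 for DNAJC18, 3.45 for QPRT, 3.33 for PALMD and 3.31 for FAXDC2. It was log2 −5.48 for FBXW10, −5.16 for TTN, −4.65 for LINC00452, −4.44 for KRT78 and −4.34 for MYRIP. No explanation was tested for these differences.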

How the results depend on the processing

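With TMM and median-of-ratios scaling the counts of genes higher with NCS and MI-1061 were 930 and 922, and of genes lower 729 and 735. The median of all genes moved by −0.61 or −0.62. Some genes with low counts moved by less, such as FBXW10, from log2 −5.61 to −6.13 with both scalings. Both assume that most listed genes did not change, which a selected table does not offer. Leaving out libraries gave 1347 to 1711 genes higher and 171 to 314 lower, 365 to 741 higher and 284 to 665 lower for the contrast without a compound, and 243 to 781 and 113 to 458 for that with MD-224. The lowest counts came without replicate 3 of every group. The other settings kept these counts within 1.5 times.

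Of the values of named genes under all settings, 2518 kept direction and side of the threshold, 73 lost the call, 23 gained it and 44 changed sign. With TMM and median-of-ratios scaling log2 was −0.03 for RRM2B, −0.59 for DDB2, −0.60 for XPC, −0.08 for CYLD, −0.07 for TNFAIP3, −0.08 and −0.09 for TLR3, −0.23 for SNAPC5, −0.25 for IER5, −0.07 for PSAT1, −0.09 and −0.10 for GDF15, −0.19 for INSIG1, −0.19 for ATP6V1H, −0.17 for ANKRD1, −0.28 for RAD51C, and −0.17 and −0.18 for ITGAM. Leaving out libraries turned genes near 0 that were not called: DDB2 (−0.12 and −0.10), XPC (−0.15, −0.02 and −0.18, up to 0.15), HLA-C (0.01 and 0.03), IFI16 (0.05, 0.02 and 0.09, down to −0.24) and MSMO1 (0.16, 0.03 and 0.21).

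Same-numbered libraries of the compared groups had residual correlations of 0.166, 0.357 and 0.0197, and 3 of 6 libraries correlated best with their own number. The correlations were 0.286, 0.297 and 0.0627 for NCS and vehicle, and 0.203, 0.380 and 0.135 for NCS + MD-224 and MD-224. All of them were positive. The main fit did not take the numbers as pairs, so a difference shared by libraries of the same number counts there as spread. With a replicate block 1832 genes were called higher and 343 lower, with 870 and 757 for the contrast without a compound and 945 and 536 for that with MD-224. Among named genes it lost 0 calls and added SNAPC5, INSIG1 and HMGCS1 (adjusted p = 0.0424, 0.0113 and 0.0483). Tests on read counts were not run. In each of the 18 libraries 100% of the listed values were whole multiples of a fitted step of 1 read.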

Other observations

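Further gene groups are given as counts. Solute carrier genes, which move nutrients and ions across membranes, rose in 37 of 64 listed members and fell in 5, with a median of log2 0.90, and with TMM scaling 26 were called higher and 13 lower. Zinc finger genes rose in 24 of 50 members and fell in 4, with a median of log2 0.52, or 10 and 13 with TMM scaling. Genes with long noncoding RNA names rose in 49 of 158 members and fell in 28, with a median of log2 0.27, or 21 and 48 with TMM scaling. The backgrounds over all genes are 55.9% higher and 10.1% lower, with a median of log2 0.71. Their NCS effect was lower with MI-1061 than without a compound in 44 of the 158 noncoding members and higher in 11, beside 20.8% and 23.5% of all genes.

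By chromosome, the highest shares of listed genes called higher were 72.5% of 109 on X and 70.5% of 78 on chromosome 14. The lowest was 44.8% of 116 on chromosome 9, beside 55.9% of all genes. The highest shares called lower were 18.2% of 55 on chromosome 13 and 15.5% of 155 on chromosome 12, beside 10.1% of all genes. These extremes were picked after all shares were seen, and no difference between chromosomes was tested.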
